A study of Mus musculus with 24 samples.

Results

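Canonical Wnt signalling reaches the nucleus through 10 genes described here, which encode β-catenin (Ctnnb1), the DNA-binding factors of the TCF/LEF family (Tcf7, Tcf7l1, Tcf7l2 and Lef1), the adaptors BCL9, BCL9L and PYGO2 (Bcl9, Bcl9l and Pygo2) and the acetyltransferases CBP and p300 (Crebbp and Ep300). They were taken by name from a table of 47729 genes, in which each symbol occurred once, and all 10 were among the 15736 genes tested. Without a Wnt signal, a destruction complex phosphorylates β-catenin and marks it for degradation, and TCF/LEF proteins sit on their target genes with repressors. With the signal, β-catenin accumulates, enters the nucleus, binds TCF/LEF proteins and brings BCL9 family proteins, PYGO2 and CBP or p300 to the target genes. E7386 is known as an oral agent that modulates the binding between β-catenin and CBP.

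The tissue was mammary tumour from MMTV-Wnt1 transgenic mice of the line B6SJL-Tg(Wnt1)1Hev/J, in which the promoter of the mouse mammary tumour virus drives Wnt1 in mammary epithelium. Pieces of spontaneous tumours were grown in C57BL/6J hosts to about 200 mm3, and the hosts then received vehicle, E7386 at 25 mg/kg or E7386 at 50 mg/kg, with E7386 given by mouth 2 times daily. Each of the 3 treatments was sampled on day 4, after 3 days of dosing, and on day 8, after 7 days, with 4 RNA-seq libraries in each of the 6 groups. All groups carry the transgene and contain cells of the host, and in such bulk tissue fewer cells of a type and less RNA per cell cannot be told apart. The labels give neither the age of the mice nor the number of donor tumours. Whether the libraries within a group came from separate animals is not stated, so that the p-values describe only the spread among these libraries, some of which may be technical.

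Levels are in TPM, a relative abundance of transcripts corrected for their length, and the table keeps no read depth. Every library had Wnt1, from 57.6 to 257 TPM, and the epithelial adhesion gene Epcam, from 367 to 514 TPM, together with the basal keratin gene Krt5 and the luminal keratin gene Krt8. Wnt1 did not pass the test in any comparison; its largest difference from vehicle was at 50 mg/kg on day 8 (log2 fold change -0.66, SE 0.29, limma adjusted p = 0.231). No library had the same values as another.

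The TCF/LEF genes are close relatives, which bears on how reads are assigned to them. Below is the stretch of Tcf7 coding sequence, taken in frame, that the other genes match best, judged by the lowest of their matches. Their matching stretches are given with it. It lies in the region of the HMG box with which these proteins bind DNA, from GENCODE M21 on GRCm38. Likeness among the genes other than Tcf7 was not scored here. Capitals mark bases that differ from Tcf7, and positions count from the first coding base of each gene's longest coding transcript, so that the stretches start at base 691 (Tcf7), 1198 (Tcf7l1), 1108 (Tcf7l2) and 1018 (Lef1) and are 60 bases long.
Tcf7: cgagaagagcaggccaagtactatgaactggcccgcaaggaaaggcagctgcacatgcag
Tcf7l1: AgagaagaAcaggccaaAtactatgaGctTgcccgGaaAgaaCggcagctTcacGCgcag
Tcf7l2: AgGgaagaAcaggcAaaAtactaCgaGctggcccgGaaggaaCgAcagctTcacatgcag
Lef1: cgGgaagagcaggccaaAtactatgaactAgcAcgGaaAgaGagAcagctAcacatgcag
Even here Tcf7l1 and Tcf7l2 matched Tcf7 at 49 of 60 bases and Lef1 at 51 of 60. The longest stretch without a difference that any pair of these 4 genes shared over all annotated transcripts was 14 to 23 bases. It was 31 bases between Crebbp and Ep300 and 20 bases between Bcl9 and Bcl9l.

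Of the 10 genes, 9 lay in the upper part of the levels of all tested genes, from the 68.9th percentile (Ep300) to the 98.8th (Ctnnb1). Lef1 lay at the 2.66th percentile. Ctnnb1 was the most abundant, at 620 ± 62.6 TPM (SD, n = 24 libraries), followed by Tcf7 at 193 ± 38.1 TPM. Bcl9l had 78.9 ± 8.17, Tcf7l1 52.4 ± 6.49, Tcf7l2 50.2 ± 9.53, Crebbp 43.0 ± 4.49, Bcl9 42.2 ± 5.79, Pygo2 37.6 ± 2.89 and Ep300 33.4 ± 3.43 TPM. Lef1 had 0.78 ± 0.59 TPM and reached 1 TPM in 6 of the 24 libraries, while the other 9 genes reached it in all 24.

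The order of the levels was firm at its ends and loose in its middle. Ctnnb1 lay above Tcf7, Tcf7 above Bcl9l, Bcl9l above Tcf7l1 and Ep300 above Lef1 in 24 of 24 libraries. Tcf7l1 lay above Tcf7l2 in 15, Tcf7l2 above Crebbp in 22, Bcl9 above Pygo2 in 18 and Pygo2 above Ep300 in 20 of 24. Crebbp and Bcl9 had nearly the same level, with Crebbp higher in 11 of 24 libraries. The ranges of these middle neighbours overlapped.

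**Figure D1:**
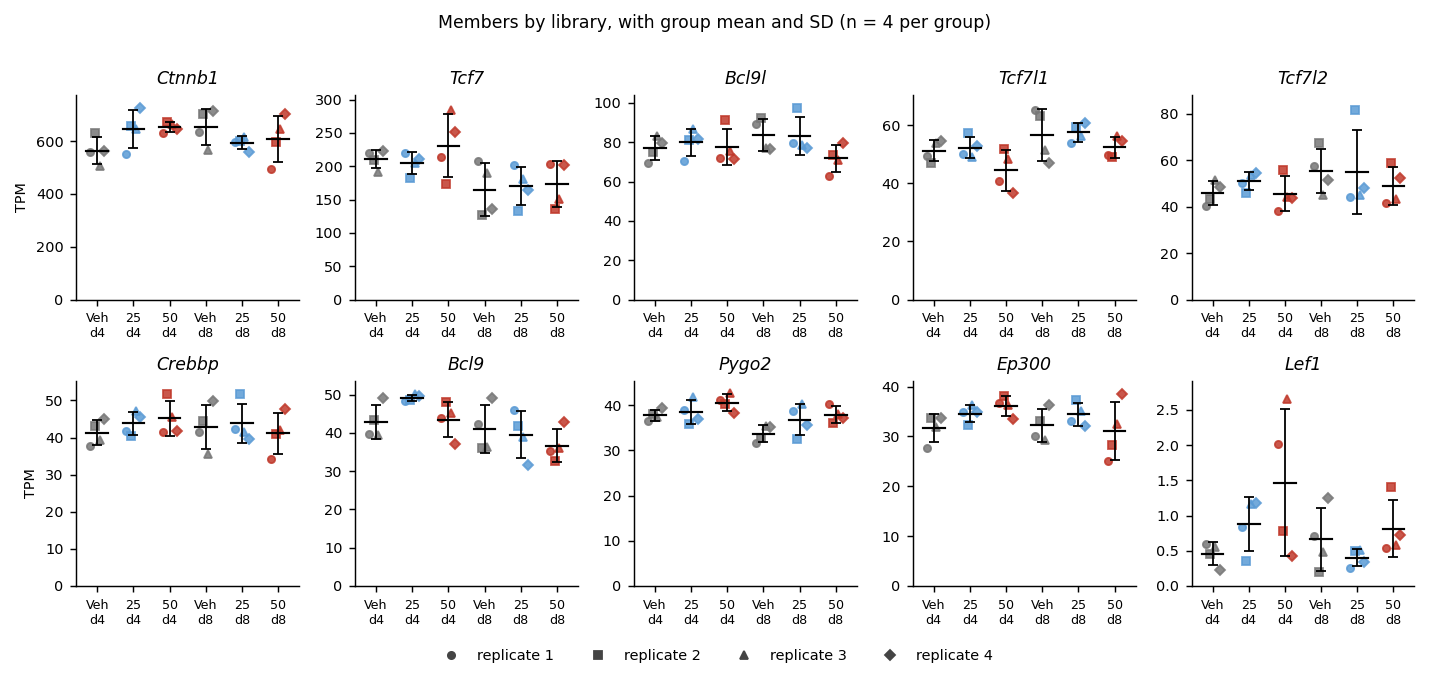
TPM of each of the 10 genes in every library, by group (Veh, vehicle; 25 and 50, E7386 in mg/kg; d4 and d8, day 4 and day 8). Symbols are the 4 libraries of a group, the horizontal line their mean and the bar the SD. Group ranges overlap in most panels, the y axes start at 0, and Lef1 stays at or below 2.65 TPM.

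Ctnnb1 (ENSMUSG00000006932) lies at chr9:120929216-120960507 on the plus strand of GRCm38. β-catenin also links cadherins to the actin cytoskeleton at cell junctions, so its transcript serves both pools of the protein. In vehicle tumours of day 4 Ctnnb1 had 559.6, 629, 506 and 561 TPM, and at 50 mg/kg 629, 671, 665 and 645 TPM. The lowest treated library was just below the highest vehicle library, and the other 3 lay above the vehicle range. The fit gave a log2 fold change of 0.21 (SE 0.10, 95% confidence interval 0.01 to 0.41), with a limma adjusted p of 0.166.

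On day 8, Ctnnb1 had 633, 701, 564 and 714 TPM in vehicle libraries and 495, 596, 645 and 701 TPM at 50 mg/kg. Here 3 of the 4 treated libraries lay within the vehicle range and 1 below it. This gave a log2 fold change of -0.11 (interval -0.31 to 0.10, adjusted p = 0.607). The test of the difference between the 2 days' effects of 50 mg/kg gave -0.32 (SE 0.14, limma adjusted p = 0.244). Vehicle tumours themselves had 0.21 more on day 8 than on day 4 (adjusted p = 0.442), and these 3 values rest on the same vehicle libraries.

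At 25 mg/kg, Ctnnb1 had 552, 656, 645 and 727 TPM on day 4 and 598, 601, 616 and 559 TPM on day 8. On day 4, 3 of 4 libraries were above the vehicle range, and on day 8, 1 of 4 was below it. The log2 fold changes were 0.19 and -0.13, with adjusted p = 0.914 and 1. The Ctnnb1 locus overlaps Ulk4 on the opposite strand, which had a mean of 1.46 TPM.

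Crebbp (chr16:4081328-4213997, minus strand) and Ep300 (chr15:81585351-81652077, plus strand) encode acetyltransferases that add acetyl groups to histones and act as coactivators of many transcription factors besides TCF. Crebbp had 37.7, 43.0, 39.4 and 45.1 TPM in vehicle on day 4 and 41.6, 51.7, 45.5 and 41.7 TPM at 50 mg/kg. Ep300 had 27.7, 33.7, 31.8 and 33.7 TPM in vehicle libraries and 36.7, 38.1, 36.4 and 33.4 TPM at 50 mg/kg. For Ep300, 3 of 4 treated libraries lay above the vehicle range, and for Crebbp 2 of 4. The log2 fold changes were 0.19 for Ep300 (interval -0.02 to 0.39, limma adjusted p = 0.244) and 0.12 for Crebbp (interval -0.10 to 0.35, adjusted p = 0.501).

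On day 8, Crebbp had 41.4, 44.6, 35.6 and 49.9 TPM in vehicle libraries and 34.2, 40.8, 41.9 and 47.7 TPM at 50 mg/kg. Ep300 had 30.1, 33.1, 29.2 and 36.4 TPM in vehicle libraries and 25.1, 28.3, 32.5 and 38.5 TPM at 50 mg/kg. The treated libraries of both genes fell on both sides of the vehicle mean. Both log2 fold changes were -0.06 (adjusted p = 0.834 for Crebbp and 0.796 for Ep300).

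At 25 mg/kg neither acetyltransferase gene passed the test on either day. Crebbp had 41.8, 40.5, 47.1 and 45.7 TPM on day 4 and 42.4, 51.6, 41.4 and 39.7 TPM on day 8. Ep300 had 34.8, 32.3, 36.3 and 35.0 TPM on day 4 and 33.1, 37.3, 35.1 and 32.0 TPM on day 8. Every one of these groups overlapped its vehicle group, and the 4 log2 fold changes ran from 0.03 to 0.12.

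Crebbp exceeded Ep300 in every library. The log2 ratio of their TPM was 0.37 ± 0.08 (SD, n = 24) and ranged from 0.18 to 0.53. No comparison of the ratio with vehicle passed the test. The largest difference between group means was -0.06, at 50 mg/kg on day 4 (0.32 against 0.38, exact permutation test, two-sided, p = 0.371, adjusted p = 0.777 over 24 such tests of ratios and shares).

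Among the DNA-binding factors, Tcf7 (chr11:52252371-52283014, minus strand), which encodes TCF1, was dominant. It made up 64.5 ± 6.92% of the summed TPM of the 4 genes (SD, n = 24; range 48.5% to 75.6%), against 18.0 ± 3.16% for Tcf7l1, 17.3% for Tcf7l2 and 0.26% for Lef1. Tcf7 has 2 annotated transcripts in GENCODE M21, and gene-level TPM does not separate forms of the protein with and without the region that binds β-catenin. TCF1 and LEF1 are also factors of T cells. Of the 13 T and NK cell markers, Lck was the most abundant, at 5.46 to 18.6 TPM over the libraries, followed by Trac at 3.41 to 12.8 TPM and Trbc2 at 1.98 to 17.7 TPM. The other 10 ranged from 0 to 5.78 TPM, Cd3d, Cd3e and Cd3g among them, and the lowest value of Tcf7 was 127 TPM. The part of these cells in the level of Tcf7 was not tested.

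On day 4, Tcf7 had 219.9, 210.0, 192 and 223 TPM in the vehicle libraries, 220.3, 182, 204 and 212 TPM at 25 mg/kg and 215, 174, 285 and 251 TPM at 50 mg/kg. On day 8 it had 207, 127, 189.9 and 136 TPM in the vehicle libraries, 201, 134, 180.4 and 165 TPM at 25 mg/kg and 203, 137, 150.3 and 202 TPM at 50 mg/kg. In vehicle, 3 of the 4 libraries of day 8 lay below the whole range of day 4. That difference was -0.38 on the log2 scale (SE 0.17, interval -0.73 to -0.03, limma adjusted p = 0.430). The effects of 50 mg/kg were 0.11 on day 4 and 0.08 on day 8 (adjusted p = 0.732 and 0.859), those of 25 mg/kg -0.05 and 0.06.

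Replicate 2 was the lowest library for Tcf7 in 5 of the 6 groups, vehicle of day 4 being the exception.

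**Figure D2:**
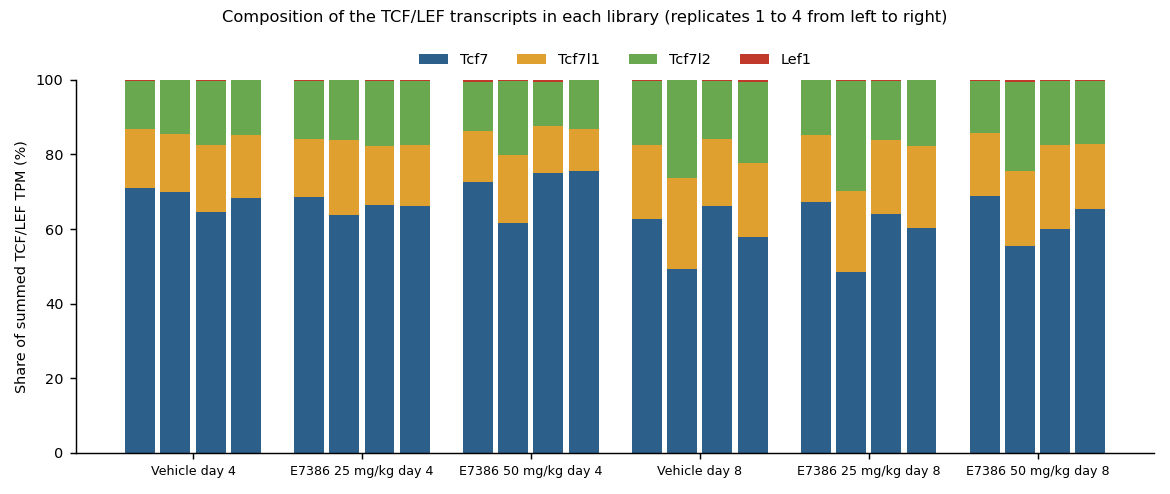
Share of each TCF/LEF gene in the summed TPM of the 4 genes (%), 1 bar per library, with the libraries of each group side by side. Tcf7 holds 48.5% to 75.6% of the sum; Lef1 is a thin band at the top.

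Tcf7l1 (chr6:72626378-72789254, minus strand) encodes TCF3, the family member best known as a repressor. On day 4, Tcf7l1 had 49.4, 47.0, 53.8 and 54.5 TPM in the vehicle libraries, 50.0, 57.3, 49.1 and 52.7 TPM at 25 mg/kg and 40.7, 51.9, 48.4 and 36.8 TPM at 50 mg/kg. At 50 mg/kg, 2 of the 4 libraries lay below the vehicle range, and 3 below the range at 25 mg/kg. The log2 fold change of 50 mg/kg was -0.21 against vehicle (SE 0.10, interval -0.42 to 0.01, limma adjusted p = 0.205) and -0.24 against 25 mg/kg (adjusted p = 0.296). The locus overlaps Gm37969 on the same strand, a gene model to be experimentally tested with a mean of 1.1 TPM, so a part of the reads of either could have been given to the other.

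On day 8, Tcf7l1 had 65.3, 63.2, 51.4 and 47.0 TPM in the vehicle libraries, 53.8, 59.5, 56.1 and 60.7 TPM at 25 mg/kg and 49.8, 49.0, 56.2 and 54.5 TPM at 50 mg/kg. Vehicle held both the highest and the lowest of these values. The log2 fold changes from vehicle were 0.03 and -0.10 (adjusted p = 1 and 0.647).

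Tcf7l2 (chr19:55741820-55933654, plus strand) encodes TCF4, which can activate or repress its targets. On day 4 it had 40.2, 43.3, 51.4 and 48.2 TPM in the vehicle libraries, 50.2, 45.9, 53.4 and 54.4 TPM at 25 mg/kg and 38.1, 55.9, 44.2 and 43.7 TPM at 50 mg/kg. On day 8, Tcf7l2 had 57.5, 67.5, 45.0 and 51.5 TPM in the vehicle libraries, 44.3, 81.6, 45.2 and 48.2 TPM at 25 mg/kg and 41.5, 58.8, 43.3 and 52.1 TPM at 50 mg/kg. Replicate 2 held the highest value of both treated groups and of vehicle on day 8. The 4 log2 fold changes from vehicle lay between -0.17 and 0.15, with adjusted p of 0.623 or more.

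Lef1 (chr3:131110471-131224356, plus strand) was the rarest of the 10 genes and the one that varied most. On day 4, Lef1 had 0.60, 0.46, 0.55 and 0.23 TPM in the vehicle libraries, 0.84, 0.36, 1.16 and 1.18 TPM at 25 mg/kg and 2.01, 0.78, 2.65 and 0.42 TPM at 50 mg/kg. At each dose 3 of the 4 libraries lay above the vehicle range. The log2 fold change of TPM + 1 was 0.66 at 50 mg/kg (SE 0.25, interval 0.14 to 1.18, limma adjusted p = 0.103) and 0.35 at 25 mg/kg (SE 0.25, adjusted p = 0.914). Replicate 4 at 50 mg/kg, with 0.42 TPM, decided the call: without it the value was 0.89 with an adjusted p of 0.0292. Without replicate 3 of that group, with 2.65 TPM, it was 0.44 with an adjusted p of 0.313, and over all alternatives it ran from 0.23 with a pseudocount of 5 to 1.25 with one of 0.1.

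The levels of the T and NK cell list are given beside these values. On day 4 its 13 genes summed to 24.3 to 29.1 TPM in vehicle libraries and to 35.2 to 52.2 TPM at 50 mg/kg, without overlap. Of single tested genes, 18.4% had groups that did not overlap in this comparison, in either direction. No such share was taken for sums of lists. In each group, 4 of the 13 had a mean of 1 TPM or more. All 8 of the 13 genes that were tested had positive log2 fold changes, with a median log2 fold change of 0.36 against 0.03 for all genes, and none of them passed the test. The most abundant were Lck (10.2 TPM in vehicle, 13.6 TPM at 50 mg/kg), Trbc2 (5.15 and 10.96 TPM, log2 fold change 0.98, adjusted p = 0.153) and Trac (6.49 and 9.61 TPM). No gene of the list was at 0 in all libraries of either group, and Cd3e and Cd3g had means of 0.29 and 0.46 TPM in vehicle and 0.68 and 0.69 TPM at 50 mg/kg. Over the 24 libraries, deviations of Lef1 and of the list from their group means had r = 0.33 (permutation p = 0.235, adjusted p = 0.513 over 10 relations; rho = 0.16, p = 0.505, adjusted p = 0.842). The relation was 0.26 within day 4 and 0.44 within day 8, and 0.23 without the 2 libraries farthest from the median of the list. The part of these cells in the values of Lef1 was not tested.

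On day 8, Lef1 had 0.71, 0.20, 0.48 and 1.25 TPM in the vehicle libraries, 0.26, 0.50, 0.51 and 0.34 TPM at 25 mg/kg and 0.54, 1.41, 0.58 and 0.72 TPM at 50 mg/kg. All 4 libraries at 50 mg/kg lay above all 4 at 25 mg/kg, as was the case for 3.82% of all tested genes in this comparison. Between the doses, the log2 fold change was 0.35 (SE 0.25, limma adjusted p = 0.498). Against vehicle, both doses overlapped it, with log2 fold changes of 0.14 and -0.21.

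The share of Lef1 in the TCF/LEF sum was 0.15% in vehicle and 0.45% at 50 mg/kg on day 4 (exact permutation test, two-sided, p = 0.114, adjusted p = 0.777). The same p came from this share at 25 mg/kg on day 4 (0.28% against 0.15%), and no lower one from any of the 24 tests of ratios and shares, of which none passed. The smallest p that 4 libraries against 4 allow is 0.0286. After adjustment over the 24 tests, a single test at that p would not have passed. That none passed therefore does not show that the ratios and shares were the same. The shares of Tcf7 on day 4 were 68.4 ± 2.81% in vehicle and 71.2 ± 6.57% at 50 mg/kg, and on day 8 59.0 ± 7.35% and 62.5 ± 5.86% (SD, n = 4 each).

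TCF/LEF proteins bind a short core motif in DNA. On both strands, its forms CTTTGAA as well as CTTTGAT, and with the other next base CTTTGTA as well as CTTTGTT, were looked for in windows from 250 bases before to 50 after each gene start in RefSeq (GRCm38.p6), of which 17 belonged to 9 of the 10 genes. They were present in 1 window each of Tcf7l2 and Lef1, and in 16.9% of all 32851 windows. The sites are shown with their flanks because they lie in genes of the family itself, with the motif or its reverse complement in capitals.
Tcf7l2, chr19:55895296-55895325, plus strand: aaaatatcaggCTTTGTTcttttgattgaa
Lef1, chr3:131156136-131156165, plus strand: caacctcagaaTACAAAGtaggattgcatt
Both windows belong to start sites inside the gene, not at its first start. Neither gene passed the test in any comparison.

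BCL9 and BCL9L bridge β-catenin and PYGO proteins, and PYGO2 reads a methylated histone tail. Bcl9l (chr9:44482825-44511896, plus strand) was the more abundant of the bridging genes, with a log2 ratio to Bcl9 of 0.91 ± 0.22 (SD, n = 24; range 0.54 to 1.36). On day 8, Bcl9l had 89.2, 92.4, 77.3 and 76.6 TPM in the vehicle libraries, 79.9, 97.5, 78.8 and 77.1 TPM at 25 mg/kg and 62.8, 73.7, 70.9 and 79.8 TPM at 50 mg/kg. At 50 mg/kg, 3 of the 4 libraries lay below the vehicle range. Against vehicle, the log2 fold change was -0.22 (SE 0.10, interval -0.42 to -0.02, limma adjusted p = 0.229), and against 25 mg/kg it was -0.21 (adjusted p = 0.280).

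On day 4, Bcl9l had 69.3, 75.3, 83.4 and 79.9 TPM in the vehicle libraries, 70.4, 81.1, 86.7 and 81.5 TPM at 25 mg/kg and 71.9, 91.2, 75.8 and 71.4 TPM at 50 mg/kg. The 3 groups overlapped throughout. Their log2 fold changes from vehicle were 0.05 and 0.01 (adjusted p = 0.959 and 0.975).

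Bcl9 (chr3:97203662-97297917, minus strand) had 39.9, 43.5, 39.5 and 49.1 TPM in vehicle on day 4, 48.3, 48.8, 50.1 and 49.7 TPM at 25 mg/kg and 43.9, 48.0, 45.2 and 37.0 TPM at 50 mg/kg. The 4 libraries at 25 mg/kg lay within 2 TPM of each other and above all 4 at 50 mg/kg, as 4.47% of tested genes did. The log2 fold change of 50 against 25 mg/kg was -0.18 (SE 0.11, limma adjusted p = 0.513), and that of 25 mg/kg against vehicle 0.20 (SE 0.11, adjusted p = 0.914). On day 8, Bcl9 had 42.4, 35.97, 36.3 and 49.2 TPM in the vehicle libraries, 46.0, 41.8, 39.0 and 31.6 TPM at 25 mg/kg and 35.4, 32.7, 36.0 and 42.8 TPM at 50 mg/kg. These groups overlapped, and the log2 fold changes from vehicle were -0.05 and -0.15.

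Pygo2 (chr3:89430214-89435128, plus strand) varied least. Its SD of log2 values within groups was 0.08, at the 7.64th percentile of the tested genes, whose median was 0.18. On day 8, Pygo2 had 31.6, 32.7, 35.4 and 35.3 TPM in the vehicle libraries, 38.8, 32.6, 40.2 and 35.7 TPM at 25 mg/kg and 40.4, 36.1, 38.0 and 37.3 TPM at 50 mg/kg. All 4 libraries at 50 mg/kg lay above all 4 of vehicle, as 1.58% of tested genes did. The log2 fold change was 0.17 (SE 0.06, interval 0.03 to 0.30, limma adjusted p = 0.170).

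On day 4, Pygo2 had 36.5, 38.1, 37.5 and 39.4 TPM in the vehicle libraries, 38.9, 35.96, 42.0 and 37.0 TPM at 25 mg/kg and 41.2, 40.2, 42.7 and 38.4 TPM at 50 mg/kg. Here the treated groups overlapped vehicle (log2 fold change 0.02 and 0.10, adjusted p = 0.979 and 0.345). The vehicle libraries of day 8 all lay below those of day 4, as 2.52% of tested genes did. That difference was -0.16 (SE 0.06, limma adjusted p = 0.417), and the comparison of day 8 above uses the same vehicle libraries.

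Across the comparisons, no gene of the machinery passed the test. At 50 mg/kg against vehicle on day 4, 0 of 10 passed, where 9.26% of all tested genes did, and 2 of 10 had an unadjusted p under 0.05, against 25.9% of all genes. The groups did not overlap for 0 of 10, where this held for 18.4% of all genes. On day 8 it was 0 of 10 against 2.78%, with 2 under an unadjusted 0.05 against 17.9%, and with 1 whose groups did not overlap (Pygo2) against 6.49%. At 25 mg/kg no gene of the table passed on either day (0% of 15736 by limma), and 0 of the 10 had an unadjusted p under 0.05, against 4.6% and 2.97% of all genes. The groups overlapped for all 10 on both days, while 5.54% of all genes on day 4 and 1.63% on day 8 had groups that did not.

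Between the doses, 0 of 10 passed on day 4, where 2.15% of all tested genes did, and 0 of 10 on day 8, where 1.08% did. On each day 1 of 10 had an unadjusted p under 0.05 (14% and 16.7% of all genes), and 1 of 10 had groups that did not overlap (Bcl9 on day 4 against 9.89% of all genes, Lef1 on day 8 against 9.86%). Between the vehicle groups of the 2 days it was 0 of 10 and 0% of all genes (3 of 10 and 11.1% at an unadjusted p under 0.05), and the groups of 1 of 10, Pygo2, and of 4.33% of all genes did not overlap. For the difference between the days in the effect of 50 mg/kg, it was 0 of 10 and 1.44% of all genes (1 of 10 and 16.1% at an unadjusted p under 0.05). The comparisons of the 2 doses with vehicle share their vehicle libraries.

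The median log2 fold change of the 10 genes at 50 mg/kg was 0.10 on day 4, where that of all tested genes was 0.03, and -0.08 on day 8, against -0.02. The bounds of the 95% intervals reached from -0.42 (Tcf7l1) to 1.18 (Lef1) on day 4 and from -0.52 (Tcf7l2) to 0.66 (Lef1) on day 8. Data were simulated with these libraries' means and spread for 50 mg/kg against vehicle on day 4 (15736 genes). In them, 67 genes were raised 1.25-fold, 67 were raised 1.5-fold and 66 were raised 2-fold. They were drawn only from genes well above the level of Lef1, and the noise of each gene was drawn independently. The test found 31.3%, 71.6% and 95.5% of these genes, in that order. In the measured data, 1457 genes passed in this comparison. How far these rates hold for the 10 genes, Lef1 with its low level included, was not tested. A p above the threshold does not show that a level was the same.

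**Figure D3:**
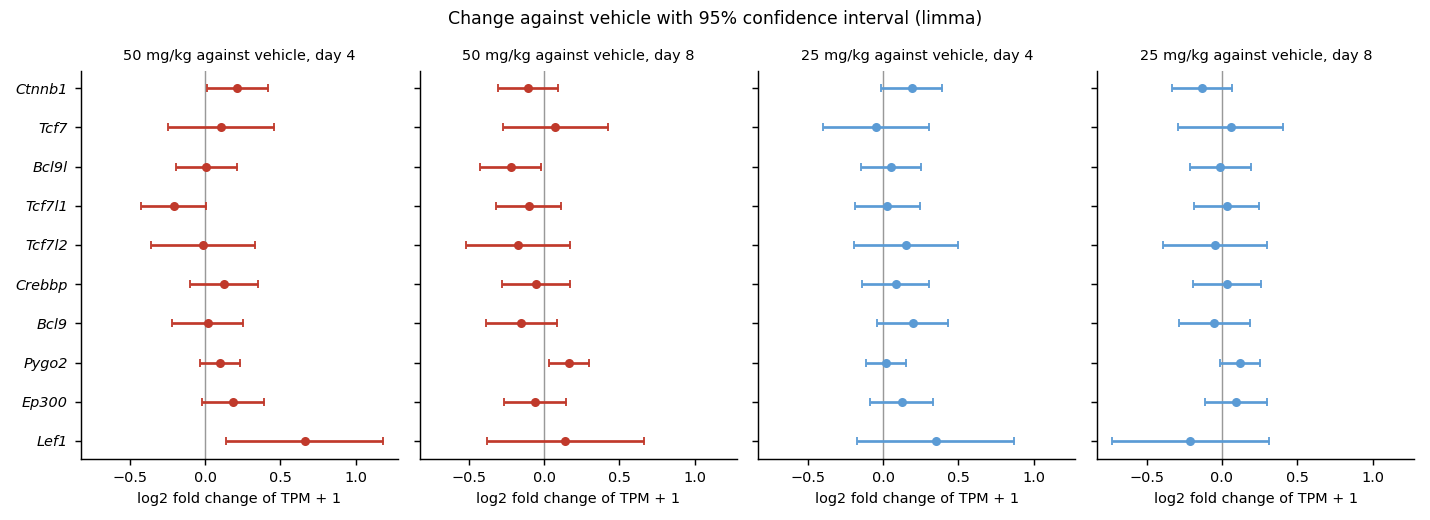
Log2 fold change of TPM + 1 against vehicle for each of the 10 genes (points, from the limma fit of all 24 libraries) with 95% confidence intervals (bars), for both doses and days. Intervals that leave 0 out are those of Ctnnb1 and Lef1 at 50 mg/kg on day 4 and of Bcl9l and Pygo2 at 50 mg/kg on day 8; no adjusted p is below 0.05.

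Within groups, the acetyltransferase genes and Ctnnb1 varied together from library to library, and so did Crebbp with others of the 10 genes. Taking each library's deviation from its group mean in log2(TPM + 1), Crebbp and Ep300 had r = 0.85 and rho = 0.86 over 24 libraries (permutation p = 1e-05 each, the smallest that 100000 permutations give, adjusted p = 0.0001 over 10 relations). The relation was 0.78 within day 4 and 0.88 within day 8, and 0.84 without the 2 libraries farthest from the median of Crebbp. It was 0.81 with TMM scaling factors. Of 15735 other genes, 0.98% had a correlation with Crebbp as high as that of Ep300.

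Ctnnb1 and Crebbp had r = 0.71 (permutation p = 0.00066, adjusted p = 0.0033) and rho = 0.68 (p = 0.00135, adjusted p = 0.00675), with 0.67 without the 2 farthest libraries and 0.65 with TMM factors. The relation was 0.44 within day 4 and 0.85 within day 8. Of 15735 other genes, 2.81% had a correlation with Ctnnb1 as high as that of Crebbp. The relation of Tcf7 and Lef1 did not pass (r = 0.05, permutation p = 0.855, adjusted p = 0.855). Its rho was 0.01 (permutation p = 0.978, adjusted p = 0.978). Without the 2 farthest libraries r was -0.17, within day 4 it was 0.38 and within day 8 -0.26. Nor did the relation of Bcl9 and Bcl9l pass (r = 0.28, permutation p = 0.256, adjusted p = 0.513). Its rho was 0.34 (permutation p = 0.157, adjusted p = 0.393). Without the 2 farthest libraries r was 0.36, within day 4 it was 0.50 and within day 8 0.16. All points of a relation come from the same libraries, whose makeup both genes share. The permutations took libraries of different groups as independent, and the labels do not say whether same-numbered libraries share a source.

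**Figure D4:**
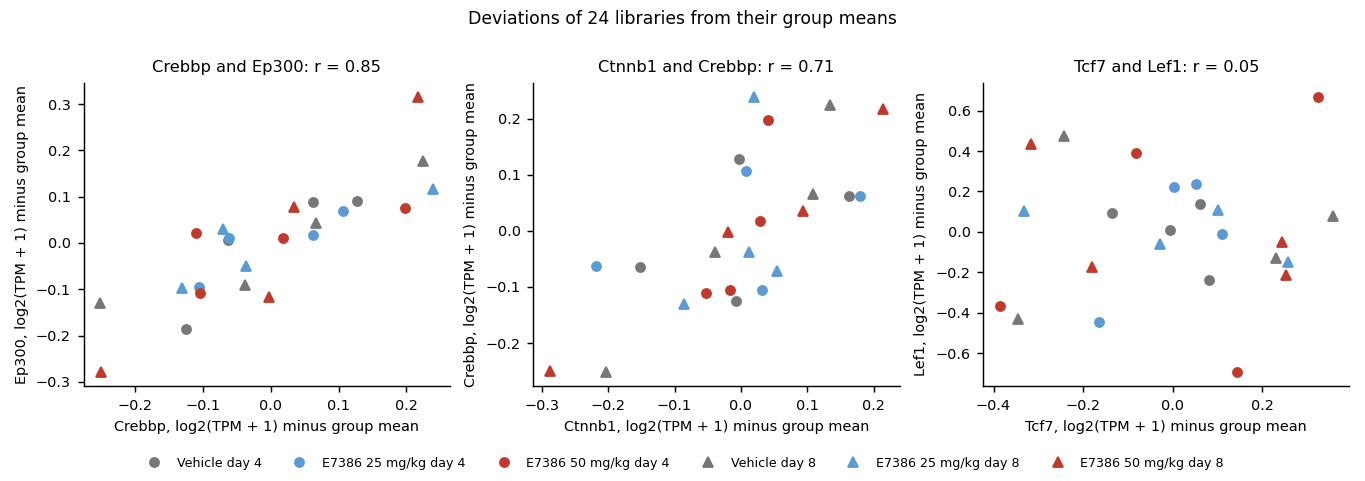
Deviation of each library from its group mean in log2(TPM + 1), for Crebbp and Ep300, Ctnnb1 and Crebbp, and Tcf7 and Lef1 (24 libraries; colour and shape give the group). The points of Crebbp and Ep300 follow a line (r = 0.85), and those of Tcf7 and Lef1 do not (r = 0.05).

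The genes whose deviations were most like those of each gene, over 24 libraries, are given with Pearson's r as a description. Nearest to Crebbp were the histone acetyltransferase gene Kat6b (0.95), the cohesin loader gene Nipbl (0.95) and the histone methyltransferase gene Ash1l (0.94). Nearest to Ep300 were Atxn7 (0.94), Prdm2 (0.92) and again Ash1l (0.92). For Ctnnb1 they were Atp10b (0.90), the tight junction gene Tjp3 (0.88) and the protease inhibitor gene Spint2 (0.87).

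For Tcf7 the nearest were the ligand gene Wnt6 (0.88), Edaradd (0.88) and the P-cadherin gene Cdh3 (0.875), for Tcf7l2 Eml5 (0.94), Nat8f2 (0.92) and Dennd2d (0.92), and for Tcf7l1 Pdcl (0.79), Cfap97 (0.78) and Pik3r2 (0.77). Lef1 had the lowest values, with Adgrb1 (0.77), Rnf8 (0.77) and Mterf1a (0.71). For Bcl9 they were Glg1 (0.90), Ptprs (0.87) and the histone methyltransferase gene Dot1l (0.87), for Bcl9l the epithelial factor gene Ehf (0.895), Cdc40 (0.89) and the cell cycle inhibitor gene Cdkn1b (0.89), and for Pygo2 Rpp40 (0.81), Nptx1 (0.77) and Aen (0.77). Among the 10 genes themselves, Bcl9l and Tcf7l2 had 0.82.

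Around the 10 genes, 12 genes of 6 pathway lists passed the test at 50 mg/kg on day 4, where 9.26% of all tested genes did, 779 of them higher and 678 lower. In the list of the β-catenin destruction complex and its regulators, 2 of 15 tested genes rose and none fell at 50 mg/kg on day 4 (median log2 fold change 0.05 against 0.03 for all genes). Rnf146 and the tankyrase genes are in this list as regulators, not as parts of the complex. Csnk1a1, the casein kinase that primes β-catenin for degradation, had 336 ± 14.8 TPM in vehicle libraries and 391 ± 22.0 TPM at 50 mg/kg (SD, n = 4 each; log2 fold change 0.22, SE 0.05, limma adjusted p = 0.0138). Rnf146, a ubiquitin ligase that removes AXIN marked by tankyrase, had 38.3 ± 2.88 and 45.9 ± 2.02 TPM (0.26, adjusted p = 0.0342), and overlaps Echdc1 on the opposite strand.

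Of the 18 other β-catenin and TCF cofactors, 1 rose and 2 fell on day 4 (median -0.05). Ssbp3, whose protein stabilizes the LDB1 adaptor, rose from 97.5 ± 3.90 to 124 ± 11.8 TPM (0.34, limma adjusted p = 0.0147). Parp1 fell (-0.44, adjusted p = 0.0339), as did the chromatin remodeller gene Smarca4 (-0.22, adjusted p = 0.0236). Of 15 tested repressors, none rose and 3 fell (median -0.12): Cby1, whose protein binds β-catenin and keeps it from TCF, from 35.3 ± 1.99 to 26.6 ± 1.01 TPM (-0.39, limma adjusted p = 0.0106), the Groucho family gene Tle4 (-0.34, adjusted p = 0.0373) and the histone deacetylase gene Hdac1 (-0.21, adjusted p = 0.0377).

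Of 16 tested Wnt and β-catenin targets, 2 rose and 2 fell on day 4 (median 0.10). Notum, a secreted enzyme that inactivates Wnt proteins, rose from 15.4 ± 4.68 to 31.1 ± 7.66 TPM (0.99, SE 0.27, limma adjusted p = 0.0269), and the secreted Wnt inhibitor gene Wif1 from 237 ± 22.0 to 379 ± 93.7 TPM (0.65, adjusted p = 0.0138). The cyclin gene Ccnd1, which overlaps LTO1 on the opposite strand, fell from 667 ± 17.9 to 524 ± 20.0 TPM (-0.35, adjusted p = 0.0351). The mitosis gene Birc5 fell as well (-0.66, adjusted p = 0.0266). Axin2, a target often used as a readout of the pathway, had 48.2 ± 6.31 TPM in vehicle libraries and 48.6 ± 10.7 TPM at 50 mg/kg on day 4 (log2 fold change -0.01, adjusted p = 0.988).

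None of the 21 other CBP and p300 partners passed on day 4 (median 0.17), and none of the 11 tested cadherin junction partners of β-catenin (median 0.16). Between vehicle and 50 mg/kg on that day, the 10 macrophage markers summed to 431 to 897 TPM and to 599 to 1301 TPM, all 10 had positive log2 fold changes and none passed. The 7 skeletal muscle markers (5.45 to 133 and 6.82 to 512 TPM, median 1.22) were all positive and the 4 tested erythroid markers (57.3 to 69.4 and 2.42 to 99.97 TPM, median -1.77) all negative, without a call. Of the 8 basal epithelium markers 1 passed on day 4, Itgb4 (log2 fold change 0.65, limma adjusted p = 0.00269), where 9.26% of all tested genes did. In that list 5 log2 fold changes were positive and 3 negative, with Krt14 at 0.49 and Acta2 at -0.71. The part of other cell types in these pathway values was not tested.

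These calls of day 4 depended on single libraries. Of the 12, 8 ended without replicate 3 of vehicle (adjusted p from 0.0663 to 0.126; those of Csnk1a1, Ssbp3, Cby1 and Wif1 held), 10 without replicate 3 of 50 mg/kg (0.0547 to 0.142; Smarca4 and Cby1 held), and 9 without replicate 1 of vehicle (0.0518 to 0.0963). Without 1 of the other 5 libraries, 4 to 6 ended. Cby1 passed in each of these 8 fits. With the filter left out, 7 of the 12 ended (limma adjusted p from 0.0507 to 0.0722), and with TMM factors 2 did (0.0507 and 0.0562).

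On day 8, 7 pathway genes passed at 50 mg/kg, and all of them fell. Of all tested genes 2.78% passed, and these calls too were more often lower (318) than higher (120), while with TMM factors 229 were lower and 210 higher. In the list of the destruction complex and its regulators, 0 of 15 rose and 3 fell (median -0.16, against -0.02 for all genes). These were the kinase gene Gsk3b from 50.8 ± 2.55 to 41.5 ± 4.49 TPM (-0.29, limma adjusted p = 0.0238), the APC partner gene Amer1 from 7.45 ± 0.79 to 5.17 ± 0.54 TPM (-0.45, adjusted p = 0.0222) and, among the regulators, the tankyrase gene Tnks from 19.4 ± 0.71 to 15.6 ± 1.65 TPM (-0.31, adjusted p = 0.0188). Of 11 cadherin junction partners 1 fell (median -0.01), the vinculin gene Vcl, which links junctions to actin, from 112 ± 4.45 to 88.9 ± 1.98 TPM (-0.33, SE 0.06, adjusted p = 0.00286). Vcl overlaps Ap3m1 on the opposite strand.

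The corepressor gene Ctbp2 (1 of 15 repressors, median -0.05; -0.34, limma adjusted p = 0.0428) shares its strand and locus with Fgfr2. Creb1 (1 of 21 CBP and p300 partners, median 0.00), the factor after which CBP is named, fell from 44.1 ± 1.31 to 35.6 ± 2.99 TPM (-0.31, adjusted p = 0.0222). Nkd1 (1 of 16 targets, median -0.06), a feedback inhibitor of Wnt signalling, fell from 9.16 ± 0.23 to 6.95 ± 0.83 TPM (-0.36, adjusted p = 0.0302). None of the 18 other cofactors passed (median -0.08). Axin2 had 33.7, 38.8, 34.4 and 48.9 TPM in the vehicle libraries of day 8 and 31.5, 30.4, 30.9 and 45.4 TPM at 50 mg/kg, with 3 of the 4 treated libraries below the vehicle range (log2 fold change -0.17, limma adjusted p = 0.598).

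**Figure D5:**
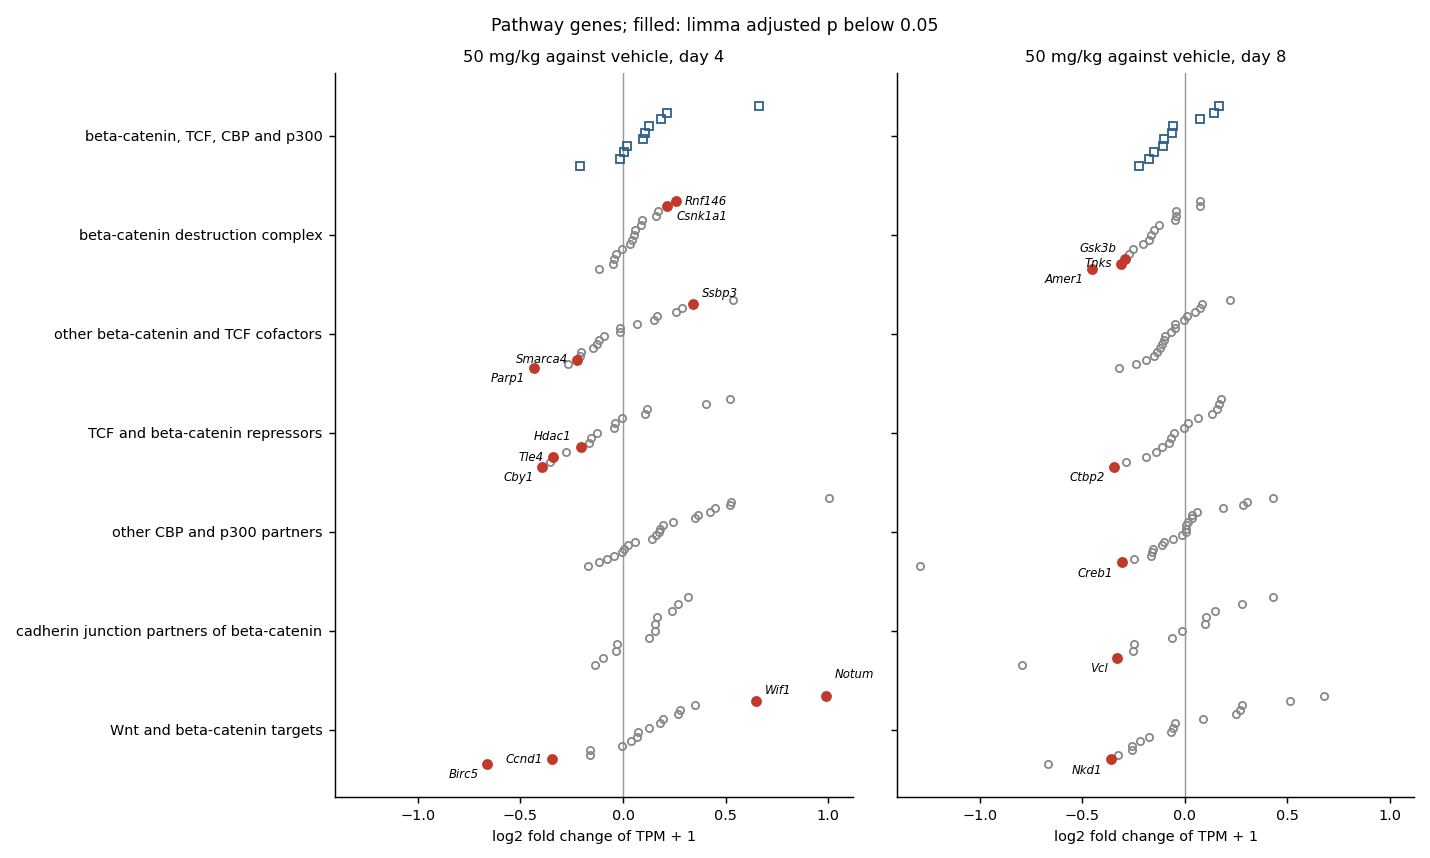
Log2 fold change of TPM + 1 at 50 mg/kg against vehicle on day 4 (left) and day 8 (right). Each point is a tested gene of 1 of 6 pathway lists, filled and named where the limma adjusted p is below 0.05, and squares are the 10 genes of the top row, none of which passed. The named genes lie on both sides of 0 on day 4 and to the left of 0 on day 8.

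On day 8 the 8 basal epithelium markers summed to 3071 to 3862 TPM in vehicle libraries and to 4161 to 5209 TPM at 50 mg/kg, without overlap. Of single tested genes, 6.49% had groups that did not overlap in this comparison, in either direction. Of the 8 markers, 4 rose (Krt5, Krt14, Krt17 and Itgb4), where 2.78% of all tested genes passed in either direction. The other 4 did not pass: Trp63 had a log2 fold change of 0.15, Itga6 -0.08, Acta2 -0.38 and Myh11 -0.40. No marker of that list was at 0. Krt14 rose from 846 ± 140 to 1561 ± 518 TPM (SD, n = 4 each; log2 fold change 0.84, limma adjusted p = 0.0103). Markers of other cell types differed in sign on day 8 as well, with none of them past the test. Log2 fold changes were negative for 6 of 7 endothelial markers (median -0.53; sums of 82.4 to 208 TPM in vehicle and 62.0 to 111 TPM at 50 mg/kg) and for 7 of 8 luminal epithelium markers (median -0.20; 1380.3 to 1931 and 1147 to 1976 TPM). They were positive for 10 of 10 macrophage markers (median 0.47; 407 to 961 and 794 to 949.8 TPM), for 7 of 8 tested T and NK cell markers (median 0.36; 18.8 to 47.8 and 28.5 to 43.9 TPM) and for 7 of 7 skeletal muscle markers (median 1.07; 5.16 to 216 and 9.08 to 256 TPM). The part of these differences in the pathway values of day 8 was not tested. Without replicate 2 of vehicle, 6 of the 7 pathway calls of day 8 ended (adjusted p from 0.062 to 0.138; Vcl held), and without replicate 3 of 50 mg/kg or replicate 1 of vehicle 5 ended (0.0606 to 0.115 and 0.0651 to 0.13). Without each of the others, 0 to 4 ended. All 7 ended in a fit of the compared groups alone (0.108 to 0.337). With TMM factors 3 of the 7 ended (limma adjusted p from 0.0505 to 0.104), and with quantile normalization 3 did (0.0523 to 0.0672).

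Between the doses, Vcl was lower at 50 than at 25 mg/kg on day 4 (-0.29, limma adjusted p = 0.00825) and on day 8 (-0.31, adjusted p = 0.0113). Both calls of Vcl ended in a fit of the compared groups alone (limma adjusted p = 0.0882 on day 4 and 0.0592 on day 8). They held in the 15 other alternatives. Ldb1, the adaptor gene, was lower on day 8 (-0.28, adjusted p = 0.0341), overlaps Pprc1 on the opposite strand, and lost its call without 6 of the 8 libraries compared (adjusted p from 0.0531 to 0.119; 0.119 without replicate 2 of 25 mg/kg). No other gene of the 6 lists passed between the doses, none passed at 25 mg/kg against vehicle on either day, and none between the vehicle groups of the 2 days.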

How the data were processed

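RNA was purified with RNeasy columns and made into strand-specific SureSelect libraries, per the labels' protocols. The submitters' processing notes name bcl2fastq, Trimmomatic 0.36, STAR 2.5.0c, RSEM 1.2.31 and the build mm10 (GRCm38); the annotation and the strand setting of the counting were not given in any source used here. The authors deposited TPM values, which keep no depth, so no counting intervals are given. Of 47729 gene identifiers, 47224 matched GENCODE M21, which gave names and coordinates.

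Values were analysed as log2(TPM + 1), which understates changes of low genes, for the 15736 genes with 1 TPM in 4 libraries or more. Limma 3.58.1, run under R 4.3.3 with an intensity trend in its empirical Bayes step, fitted 6 group means to 24 libraries, with 18 residual degrees of freedom. P-values are two-sided and Benjamini-Hochberg adjusted over all genes tested, with a threshold of 0.05, unless an exact or permutation test is named. The fit was tested on simulated data. Genes were named by rule: all 10 members, the 3 genes nearest to each by r, and up to 3 genes in each direction of each list. Axin2, the pair Bcl9l and Tcf7l2 and the further pairs of Crebbp among the 10 genes were named after their values were seen. Members and lists were chosen with earlier results of these data known. Alternatives were TMM factors (unweighted), quantile normalization, pseudocounts of 0.1 and 5, leaving the filter out or raising it to 5 TPM, the compared groups only, the replicate block and leaving out each library.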

Additional observations from a re-analysis of the deposited data

Results flagged for a closer look

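In the group given 25 mg/kg on day 8, replicate 2 stood apart from the other 3 libraries for Tcf7l2, at 81.61 TPM against 44.3 to 48.2 TPM, and for Bcl9l, at 97.47 TPM against 77.1 to 79.9 TPM. In the group given 50 mg/kg on day 8, replicate 2 stood apart for the share of Lef1 in the TCF/LEF sum, at 0.574% against 0.18% to 0.23%. These are 3 of 96 groups examined, each with a gap to the nearest library of more than 0.829 of the group's range, and chance gives about 5% of groups.

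The effect of 50 mg/kg differed between day 8 and day 4 for 3 of the 15 genes listed for the destruction complex and its regulators. This was by limma's test of that difference, which 1.44% of all genes passed. Of the 3, Tnks and Rnf146 are regulators and not parts of the complex. The differences, day 8 minus day 4 on the log2 scale, were -0.3645 for Csnk1a1 (adjusted p = 0.0153), -0.4039 for Tnks (adjusted p = 0.0455) and -0.4209 for Rnf146 (adjusted p = 0.0487). With TMM factors none of the 3 passed (adjusted p from 0.0647 to 0.103). Csnk1a1 passed without any single library, with adjusted p from 0.00301 to 0.0898 over all its alternatives, while the calls of Tnks and Rnf146 ended in 16 and 17 of 24 alternatives. Of the 16 libraries left out in turn, 14 ended the call of 1 or both, as in the case of replicate 1 of 50 mg/kg on day 8 (0.101 and 0.107).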

How the results depend on the processing

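Over all alternatives, 1351 of 1352 values of the 10 genes kept their side of the threshold and, where called, their direction. The exception was Lef1 at 50 mg/kg on day 4 without replicate 4 of that group, so that the number of genes past the threshold ranged from 0 to 1 when single libraries were left out; 70 uncalled values had the other sign. The counts over all genes moved more. Leaving out single libraries gave 699 to 1311 for 50 mg/kg on day 4 (1457 in full; 699 without replicate 3 of 50 mg/kg and 780, 869 and 881 without replicates 3, 1 and 4 of vehicle). It gave 180 to 1175 on day 8 (438 in full; 1175, 207 and 214 without replicates 4, 1 and 2 of vehicle and 180 without replicate 3 of 50 mg/kg). Between the doses on day 4 it gave 148 to 356 (339 in full; 148 without replicate 4 of 25 mg/kg, 193 and 207 without replicates 3 and 4 of 50 mg/kg). On day 8 it gave 38 to 293 (170 in full; 73, 38 and 113 without replicates 2, 3 and 4 of 25 mg/kg, 293 and 56 without replicates 1 and 3 of 50 mg/kg). For the difference between days it gave 92 to 601 (226 in full), with 11 of 16 libraries moving it by over 1.5 times: replicates 1 to 3 of vehicle and 2 to 4 of 50 mg/kg on day 4, and replicates 2 and 3 of vehicle and 1, 3 and 4 of 50 mg/kg on day 8. A fit of the compared groups alone gave 12 genes for 50 mg/kg on day 8, 219 and 77 between the doses and 68 for the difference between days.

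With scaling, the split of higher and lower genes changed: 779 and 678 on day 4 became 656 and 873 with quantile normalization, and 120 and 318 on day 8 became 210 and 229 with TMM factors. Between the doses on day 8, 36 and 134 became 88 and 142 with quantile normalization (with TMM factors 107 were lower, of 207 in all), and for the difference between days 55 and 171 became 65 and 94 with TMM factors. The median of all genes moved by less than 0.1. Same-numbered libraries did not deviate together in every pair (correlations from -0.317 to 0.421; over 0.1 in 1 to 3 of 4 pairs per comparison, and 1 or 2 of 4 libraries correlated best with their own number). The labels do not say what a number shares, so the numbers were not used as pairs, which does not show that no pairing exists. With the replicate block, 0 of the 10 genes passed in every comparison, and 1558, 542 and 343 of all genes passed for 50 mg/kg on day 4, on day 8 and for the difference between days. For the ratios and shares, the difference between group means was taken again without 1 library. In 0 of 192 cases did it shift by as much as the SD within the compared groups. With 4 libraries in a group, leaving out 1 cannot shift it that far, so this count does not bear on stability. The permutation tests were not repeated without a library. Depth is unknown, so how far counting error limits Lef1, at 0.2 to 2.65 TPM, cannot be told.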

Other observations

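The summed TPM of the 4 TCF/LEF genes was 296 ± 31.9 (SD, n = 24). Deviations of Tcf7l2 and of the mean level of 8 fibroblast markers had r = -0.35 over 24 libraries (permutation p = 0.0684, adjusted p = 0.228 over 10 relations) and rho = -0.52 (p = 0.0115, adjusted p = 0.0385). The value of r was -0.48 within day 4 and -0.30 within day 8, and -0.39 without the 2 libraries farthest from the median of the marker level. The rank relation passed and the linear relation did not.

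Deviations of Tcf7 and of the T and NK cell list had r = -0.13 (permutation p = 0.705, adjusted p = 0.784; rho = -0.09, p = 0.735, adjusted p = 0.893). Those of the basal epithelium list had r = 0.19 with Tcf7l1 (permutation p = 0.457, adjusted p = 0.761; rho = 0.18, p = 0.481, adjusted p = 0.842) and 0.08 with Lef1 (p = 0.674, adjusted p = 0.784; rho = 0.07, p = 0.743, adjusted p = 0.893).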
